A study of Mus musculus with 2 samples.

Results

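The genes of the ATP-binding cassette (ABC) transporter family were compared between TCRαβ+CD8αα+ intraepithelial lymphocytes (IELs) from the small intestine of Rbpj+/+ and Rbpj-/- mice. Members were taken by gene symbol, as every gene probe present on both arrays whose accession resolves to a symbol made of Abc, a subfamily letter from a to g and a number. This gave 49 genes with 67 probes, out of 20887 named genes and 55679 gene probes, and 1 further ABC gene of the name table, *Abca16*, has no probe here. IELs are lymphocytes that lie between the epithelial cells of the gut, and those studied here carry an αβ T-cell receptor with a CD8αα homodimer and lack CD4, TCRγδ and CD8β. The mice were C57BL/6, male and female pooled, between 8 and 12 weeks old. *Rbpj* encodes the DNA-binding partner of the cleaved Notch receptor. Rbpj-/- mice (labelled CD4-Cre Rbpjf/f, or RFF4) carry floxed *Rbpj* with CD4-Cre, which is active from the thymic stage at which T cells express CD4. The control is called Rbpj+/+ here, after the study, which describes its control mice as wild type for *Rbpj* and carrying CD4-Cre. The sample label, however, reads Rbpjf/f (Control). RNA of several isolations was pooled, and each genotype was hybridized to 1 array of 1 color, called the control array and the RFF4 array below after their labels. The number of arrays limits the precision, so that no test, standard error across samples or replicate check can be given for any value.

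ABC proteins bind and hydrolyze ATP in paired nucleotide-binding domains, and most of them use it to move lipids, sterols, bile salts, peptides, drugs or conjugated metabolites across a membrane. Subfamily A and most of G export lipids and sterols, B holds P-glycoprotein together with transporters of mitochondria and lysosomes, C holds the multidrug resistance-associated proteins and the sulfonylurea receptors, D serves peroxisomes and lysosomes, and E and F are soluble proteins of translation without a membrane domain. In the gut, P-glycoprotein is known from both epithelial cells and lymphocytes, whereas the sterol exporters Abcg5 and Abcg8 are known from enterocytes and the liver.

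Signals are given as log2 of the background-subtracted signal minus the 75th percentile of the array, called scaled log2 signal, so that 0 is the 75th percentile of gene spots. Levels were compared between the arrays for the same probe only. The difference is the RFF4 array minus the control array. Over 13513 genes with a difference, the median was -0.01 on the log2 scale, the 5th percentile -1.003 and the 95th 1.55. Of the gene spots, 57.2% were well above background on the control array and 49.7% on the RFF4 array, by the flags of the scanner software. *Rbpj* itself went from a scaled log2 signal of 1.96 on the control array to 2.28 on the RFF4 array, a difference of 0.32 that turned to -0.80 under spike-in scaling, in which the 8 spiked control transcripts, rather than the 75th percentiles, were made equal between the arrays. A second *Rbpj* probe differed by 0.82, and the mean of both by 0.57, so that neither was lower on the RFF4 array after 75th percentile scaling. This does not check the label, since the position of the probes relative to the deleted part of the gene was not analysed here. The T-cell markers were above background on both arrays for 10 of 10 genes, with *Cd3e* at 8.10 on the control array and 8.44 on the other. *Cd8a* was at 6.25 and 6.18. *Cd8b1*, whose product the sort gated out, was above background on the control array alone, whereas *Cd4*, likewise gated out, was at 1.67 and 1.80. Markers of other cells were measured on both arrays as well. The signals of 15 epithelial markers, each divided by the 75th percentile of the array, summed to 228 on the control array and 696 on the RFF4 array. All 15 were above background on both arrays, none of them at 0. Because the RNA came from bulk cells, fewer cells of a type and less RNA per cell cannot be told apart.

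Transcripts of P-glycoprotein and of the phosphatidylcholine exporter Abcb4 were 4.57-fold to 5.83-fold lower on the RFF4 array, and these were the largest differences among the 33 measured genes with Abc symbols. Of the 49 genes, 33 had signals well above background on each array, and the ABC differences after 75th percentile scaling are between 2 such signals, apart from those said to average in a second probe. Another 15 were above background on neither array, and *Abca15* was above it on the control array alone, by too little to bound a difference. Of the 33, 19 were lower and 14 higher on the RFF4 array, with a median difference of -0.18, where 51.1% of all genes were lower. Under spike-in scaling 3 of the 33 were higher, with a family median of -1.30, where 90.02% of all genes were lower. More than 4-fold lower were 3 of the 33, the genes *Abcb1a*, *Abcb1b* and *Abcb4*, where 0.585% of all genes were, and 0 were more than 4-fold higher, where 1.85% of all genes were. More than 2-fold lower were 4 of the 33, against 5.05% of all genes, and more than 2-fold higher were 3 of the 33, against 12.3% of all genes. These counts became 21 and 0 under spike-in scaling, against 56.9% and 1.39% of all genes, and 1 gene was more than 2-fold higher with normexp, against 9.22%. Without *Abcb1a*, *Abcb1b* and *Abcb4* the median of the other 30 was -0.14. The count of genes more than 4-fold lower was 3 under 11 of the 12 other ways of processing that were tried, and 4 under spike-in scaling, where *Abca13* joined the others and 6.67% of all genes were more than 4-fold lower.

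**Figure D1:**
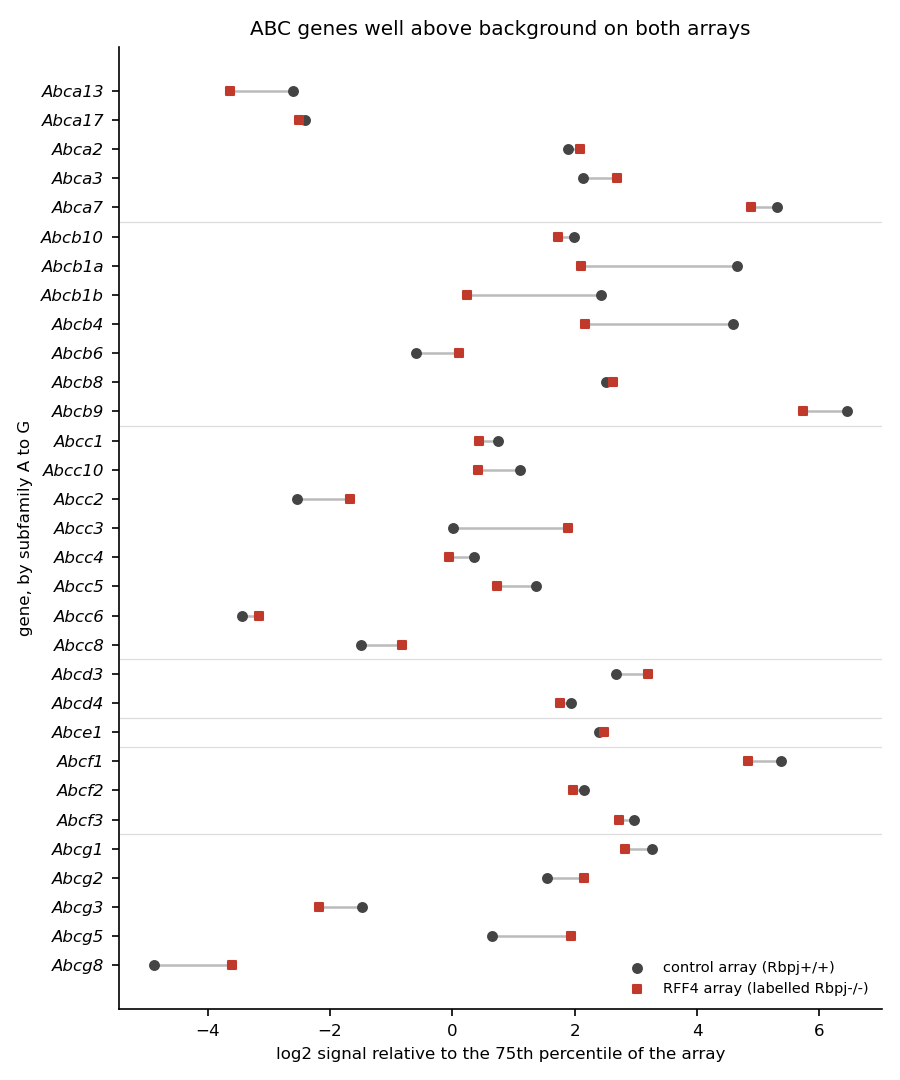
Scaled log2 signal (horizontal axis, log2 relative to the 75th percentile of the array) of ABC genes above background on both arrays and reported here, ordered by subfamily from A to G. Each gene has a circle for the control array and a square for the RFF4 array, with 1 array each, and the squares of *Abcb1a*, *Abcb1b* and *Abcb4* lie 2.19 to 2.54 log2 units left of their circles.

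*Abcb1a* and *Abcb1b* are the mouse genes for P-glycoprotein, which exports drugs and other hydrophobic compounds from many cell types, T cells included. *Abcb4* encodes the closely related transporter that moves phosphatidylcholine to the outer leaflet of the membrane, best known from the bile canaliculus. These 3 genes were named together in the rule for the family, with earlier results of these data known, so that their place at the low end is a description. *Abcb1a* had a scaled log2 signal of 4.65 on the control array and 2.11 on the RFF4 array, a difference of -2.54. Its background-subtracted signal before scaling was 12802 on the control array and 976 on the other. *Abcb4* went from 4.60 to 2.17, a difference of -2.42, with unscaled signals of 12325 and 1022. Both genes were thus far above background on each array and lower on the RFF4 array. *Abcb1b* went from 2.44 to 0.25, a difference of -2.19, with unscaled signals of 2764 and 269. The error of each of these differences was 0.20 by the error model of the scanner software, which covers spot and scanner error and no spread between mice. Ranked over the 13513 genes from the most negative difference, *Abcb1a* was number 28, *Abcb4* number 40 and *Abcb1b* number 57. Each of the 3 genes has 1 probe, and whether a probe also reads the transcript of a paralog was not tested, since probe sequences were not used here.

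The genes lie next to each other on chromosome 5 and are transcribed in the same direction, in the order *Abcb1a*, *Abcb1b*, *Abcb4*, with no other protein-coding gene between them in the RefSeq annotation (assembly GRCm38.p6). On the side of *Abcb1a*, *Rundc3b* is read from the opposite strand and overlaps *Abcb1a*. Its scaled log2 signal went from 1.93 on the control array to 0.75 on the other, a difference of -1.18, so that it too was more than 2-fold lower. The next genes on that side differed less, with -0.09 for *Slc25a40*, a mitochondrial carrier, and -0.43 for *Dbf4*, an activator of a replication kinase. On the side of *Abcb4*, *Crot*, which encodes a carnitine acyltransferase of peroxisomes, had 2.34 and 2.36, a difference of 0.02. Beyond it *Tmem243* differed by 0.62 and *Dmtf1* by -0.07. The low values thus covered the 3 ABC genes and, by a smaller amount, the gene that overlaps *Abcb1a*, and ended at *Crot*.

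**Figure D2:**
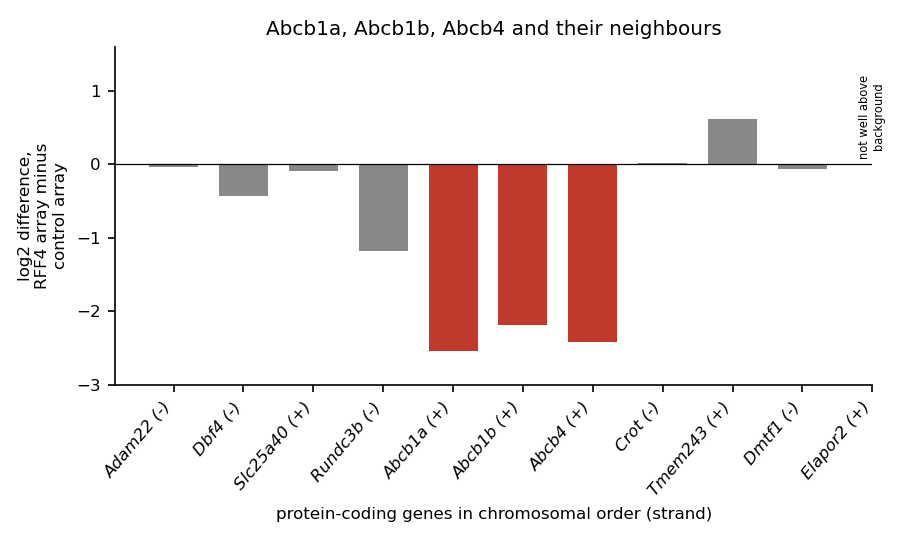
Log2 difference (vertical axis, RFF4 array minus control array, 1 array each) of *Abcb1a*, *Abcb1b* and *Abcb4* (red bars) and of the protein-coding genes around them (gray bars), in the order of chromosome 5, with the strand of each gene. Red bars reach -2.54, -2.19 and -2.42, *Rundc3b* reaches -1.18, the bar of *Adam22* is a bound because only the control array measured that gene above background, and *Elapor2* was above background on neither array.

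The promoters of these genes are shown because the genes lie together and were lower together. Each is the RefSeq window of GRCm38.p6 from 250 bases before to 50 bases after the start, written 5′ to 3′ on the strand of the gene, with capitals for matches on either strand to the core of the RBPJ site (TGGGAA), the CCAAT box (CCAAT), the GC box (GGGCGG) and a GATA motif (AGATAA). The windows are chr5:8566841-8567140 for *Abcb1a*, chr5:8797897-8798196 for *Abcb1b* and chr5:8893471-8893770 for *Abcb4*, all on the plus strand.
Abcb1a: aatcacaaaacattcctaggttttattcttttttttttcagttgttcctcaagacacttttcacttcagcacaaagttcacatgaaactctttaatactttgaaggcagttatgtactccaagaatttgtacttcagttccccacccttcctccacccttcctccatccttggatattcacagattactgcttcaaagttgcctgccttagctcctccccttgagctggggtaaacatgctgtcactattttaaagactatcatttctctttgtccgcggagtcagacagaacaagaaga
Abcb1b: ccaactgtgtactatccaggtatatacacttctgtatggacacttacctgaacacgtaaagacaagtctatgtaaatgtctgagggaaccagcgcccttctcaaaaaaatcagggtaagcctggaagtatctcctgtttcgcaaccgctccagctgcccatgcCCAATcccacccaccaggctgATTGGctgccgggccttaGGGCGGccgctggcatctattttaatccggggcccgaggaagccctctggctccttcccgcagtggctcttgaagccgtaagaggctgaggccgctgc
Abcb4: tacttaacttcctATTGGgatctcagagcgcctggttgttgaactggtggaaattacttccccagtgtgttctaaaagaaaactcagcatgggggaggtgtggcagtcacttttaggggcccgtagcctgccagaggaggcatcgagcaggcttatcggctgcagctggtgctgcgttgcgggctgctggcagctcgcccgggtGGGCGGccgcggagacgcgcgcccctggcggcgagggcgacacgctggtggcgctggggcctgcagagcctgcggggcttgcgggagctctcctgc
The windows of *Abcb1b* and *Abcb4* are both richer in CpG and GC than the median window and hold CCAAT and GC boxes, unlike that of *Abcb1a*. The window of *Abcb1a* has a GC content of 40.3% with 2 CpG dinucleotides and no match to any of the 4 motifs. That of *Abcb1b* has 55.0% GC, 12 CpG, 2 CCAAT boxes and 1 GC box. That of *Abcb4* has 64.0% GC, 21 CpG, 1 CCAAT box and 1 GC box. The median over all 32851 promoter windows was 52.7% GC and 7 CpG. The RBPJ core was matched in 0 of these 3 windows, in 9 of the 45 windows found for 38 ABC genes (20.0%) and in 25.6% of all windows, and no match says only that these letters are not in a window of 300 bases. Over all windows the CCAAT box was matched in 37.4%, the GC box in 35.7% and the GATA motif in 11.2%.

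The other 5 measured genes of subfamily B belong to transporters assembled from paired subunits, mostly in mitochondria and lysosomes, and they differed less. *Abcb9*, a peptide transporter of lysosomes, went from 6.46 on the control array to 5.73 on the other, a difference of -0.73. That difference depended on the processing, with -1.06 under quantile normalization and -1.86 under spike-in scaling. *Abcb6*, which is known for porphyrin transport, went from -0.60 to 0.11, a difference of 0.70 that became -0.42 under spike-in scaling. *Abcb10*, needed for heme synthesis, differed by -0.27. *Abcb8* differed by 0.13, by -0.06 on its second probe and by -0.999 under spike-in scaling. It was also below 0 with median scaling (-0.05) and with normexp (-0.06). Neither the bile salt export pump *Abcb11* nor *Abcb5* was above background on either array. The median of subfamily B was -0.50 over 8 genes and -0.24 over the 5 that remain without *Abcb1a*, *Abcb1b* and *Abcb4*.

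Subfamily C held the largest difference in the other direction among the 33 genes with Abc symbols. *Abcc3* encodes an exporter of bile acids and glucuronides known from the basolateral membrane of enterocytes. It had a scaled log2 signal of 0.01 on the control array and 1.89 on the RFF4 array, a difference of 1.88 or 3.69-fold with an error of 0.20 by the scanner's error model. Its unscaled signals were 513 and 842, so that it was also higher before scaling, and the difference was 0.76 under spike-in scaling. *Abcc2*, the canalicular exporter of conjugates such as bilirubin glucuronide, went from -2.53 to -1.66, a difference of 0.87 that became -0.26 under spike-in scaling. Other multidrug resistance-associated proteins were lower on the RFF4 array, with -0.32 for *Abcc1*, an exporter of glutathione conjugates and leukotriene C4, -0.41 for *Abcc4*, an exporter of cyclic nucleotides and prostaglandins, and -0.69 for *Abcc10*. *Abcc5* has 4 probes above background on both arrays, and they disagreed, with differences from -1.37 to 0.06. Its brightest probe, with 10 spots on each array, went from 1.36 to 0.73, a difference of -0.63, and the SD over its spots was 0.04 on the control array and 0.07 on the other. The sulfonylurea receptor *Abcc8*, a subunit of potassium channels, differed by 0.66 and on its second probe by 0.57, and by -0.46 under spike-in scaling. *Abcc6*, which takes part in the release of ATP, differed by 0.27, and by -0.85 under spike-in scaling, whereas *Abcc9* and *Abcc12* were above background on neither array. Across the 8 genes of subfamily C with a difference, 4 were lower and 4 higher, with a median of -0.02 that became 0.18 with normexp background correction.

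In subfamily G the pair that forms the sterol exporter of enterocytes was higher on the RFF4 array after scaling. *Abcg5* went from 0.65 to 1.94, a difference of 1.28 with an error of 0.20. *Abcg8* went from -4.88 to -3.60, a difference of 1.29, with an error of 0.38, and its unscaled signals were 17.3 on the control array and 18.7 on the other, near the lower end of what is measured. The unscaled signals of *Abcg5* were 802 and 868, so that both differences rest on the scaling, and each of them was 0.16 under spike-in scaling. These genes lie head to head on chromosome 17 and overlap. Their promoter windows share 209 bases, and the window of *Abcg8* (GRCm38.p6, chr17:84682871-84683170, plus strand) is shown because it overlaps that of *Abcg5*, with capitals as above.
Abcg8: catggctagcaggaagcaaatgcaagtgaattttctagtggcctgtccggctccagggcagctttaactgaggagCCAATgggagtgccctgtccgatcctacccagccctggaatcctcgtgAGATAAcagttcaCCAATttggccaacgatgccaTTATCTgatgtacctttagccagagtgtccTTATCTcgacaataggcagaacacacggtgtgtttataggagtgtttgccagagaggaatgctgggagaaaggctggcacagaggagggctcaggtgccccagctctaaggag
It holds 3 matches to the GATA motif, 2 to the CCAAT box and 0 to the RBPJ core, and RefSeq lists another start of *Abcg8* whose window has none of the 4. The neighbor *Lrpprc* differed by 0.05. *Abcg2*, an exporter of drugs, urate and porphyrins that marks side population cells, went from 1.55 to 2.15, a difference of 0.60 that became -0.53 under spike-in scaling. *Abcg1*, which passes cholesterol to high-density lipoprotein, went from 3.27 to 2.82, a difference of -0.45. *Abcg3*, a gene of rodents, went from -1.47 to -2.17, a difference of -0.70. The median of subfamily G was 0.60 over 5 genes, with 3 higher and 2 lower, and *Abcg4* was above background on neither array.

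**Figure D3:**
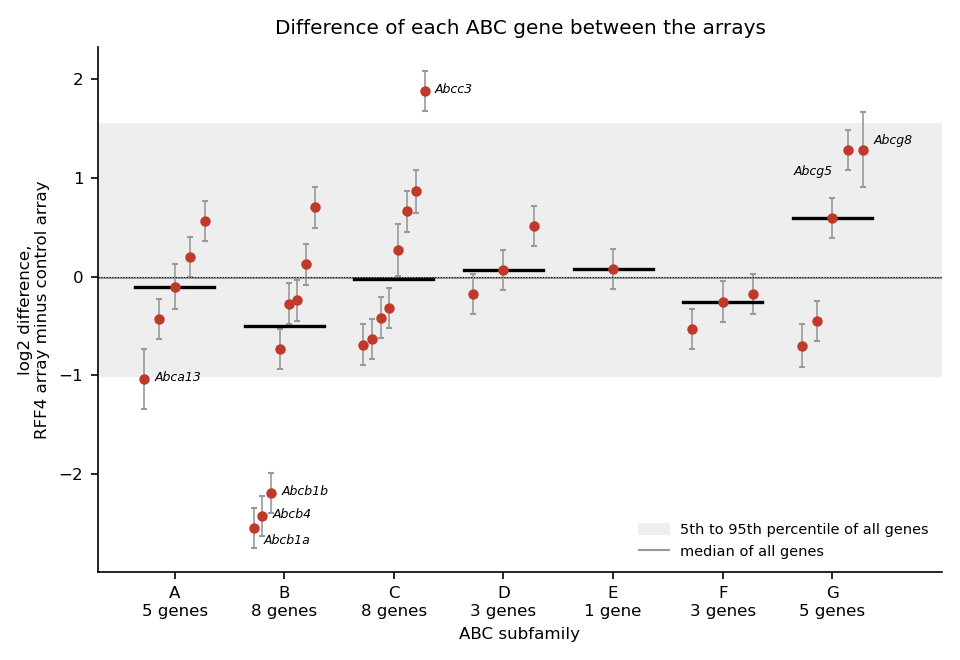
Log2 difference (vertical axis, RFF4 array minus control array) of the 33 measured ABC genes by subfamily, where thin bars are the error of 1 difference by the scanner's error model, thick bars are subfamily medians, and the gray band runs from the 5th percentile (-1.003) to the 95th (1.55) of all genes. *Abcb1a*, *Abcb1b*, *Abcb4* and *Abca13* lie below the band and *Abcc3* above it; under spike-in scaling every difference is lower by 1.12, and the medians of subfamilies D and G and that of *Abce1* in E fall below 0.

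In subfamily A, 5 of 15 genes with a probe were measured on both arrays. *Abca7*, a lipid exporter that also takes part in phagocytosis, went from 5.31 to 4.88, a difference of -0.43. *Abca3*, known for the surfactant lipids of the lung, went from 2.13 to 2.70, a difference of 0.57 that became -0.56 under spike-in scaling. *Abca2*, a lipid transporter of endosomes and lysosomes, differed by 0.20 on its brightest probe and 0.15 on the second, and by -0.93 under spike-in scaling. *Abca13* was the fourth ABC gene more than 2-fold lower, from -2.60 to -3.63, a difference of -1.03 with an error of 0.30. Its unscaled signals were only 84.2 and 18.3, and the difference turned to 0.18 with normexp background correction and to 0.09 when its second probe, which was above background on neither array, was averaged in. *Abca17* differed by -0.10, and by 0.54 with its second probe averaged in, which was likewise above background on neither array. The median of the 5 was -0.10 and became 0.18 with normexp background correction. *Abca1*, the exporter that loads cholesterol onto apolipoprotein A-I, was above background on neither array. The same held for *Abca4*, *Abca5*, *Abca6*, *Abca8a*, *Abca8b*, *Abca9*, *Abca12* and *Abca14*.

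Peroxisomal and translational members differed by no more than 0.53 log2 units in either direction on their brightest probes. *Abcd3*, the major ABC protein of the peroxisomal membrane, differed by 0.52, from 2.68 to 3.20. *Abcd4*, which serves the exit of cobalamin from lysosomes, differed by -0.18, and *Abcd2* was above background on neither array. *Abce1*, the factor that splits ribosomes for reuse, went from 2.40 to 2.48, a difference of 0.08. All 3 genes of subfamily F were lower. *Abcf1*, which acts in translation initiation, went from 5.37 to 4.83, a difference of -0.53, and its second probe differed by -0.57. The difference of its brightest probe was -0.75 with normexp and -1.66 under spike-in scaling. *Abcf2* differed by -0.17 and *Abcf3* by -0.25. Where higher, these members depended on the scaling. The differences of *Abcd3* and *Abce1* were below 0 under spike-in scaling, and that of *Abce1* also with median scaling and with normexp.

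Grouped by what the proteins carry, the ABC genes other than those of P-glycoprotein and *Abcb4* lay on both sides of 0. Of 6 listed genes for the export of phospholipid and cholesterol, 4 were measured, 2 lower (*Abca7*, *Abcg1*) and 2 higher (*Abcg5*, *Abcg8*), with a median of 0.43, which became -0.70 under spike-in scaling. Of 4 genes for bile acid and canalicular export, 3 were measured, with a median of 0.87, which became -0.26 under spike-in scaling. Of 6 genes for the export of conjugates and drugs, 5 were measured, 3 lower and 2 higher, with a median of -0.32. None of these 3 lists held a gene more than 4-fold lower or higher, where 0.585% and 1.85% of all genes were.

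Some ABC proteins carry other symbols. *Tap1* and *Tap2*, whose products pass peptides to MHC class I, differed by 0.49 and 0.21, and the chloride channel *Cftr*, known from crypt epithelium, went from -2.38 to -0.19, a difference of 2.19. Under spike-in scaling *Cftr* was still higher and *Tap1* and *Tap2* were not, and 1 of these 3 genes was lower also with quantile normalization and with normexp. Of 12 listed genes of sterol and xenobiotic regulation, 12 were measured, 7 of them more than 2-fold higher and 0 more than 2-fold lower, where 12.3% and 5.05% of all genes were. Their median was 1.32, or 0.74 with normexp, where 5 were more than 2-fold higher against 9.22% of all genes. Under spike-in scaling the median was 0.19, with 0 of the 12 more than 2-fold higher and 5 more than 2-fold lower. Of all genes, 1.39% were more than 2-fold higher and 56.9% more than 2-fold lower under that scaling. The 7 were the nuclear receptors *Nr1h3* (LXRα, a sterol sensor, 1.41), *Nr1h4* (FXR, a bile acid sensor, 1.71), *Nr1i2* (PXR, a xenobiotic sensor, 1.46), *Nr1i3* (1.33), *Rxra* (1.91), *Ppara* (1.45) and *Pparg* (1.30). The scaled log2 signal of *Rxra* on the control array, at -4.88, was near the lower end of what is measured. *Nr1h2*, the LXR gene of wide expression, differed by -0.22. Of 12 partners of ABC transporters, 11 had a difference, with a median of 0.27 that became -0.85 under spike-in scaling. Among these the lipid acceptors *Apoa1* and *Apoe* differed by 1.89 and 1.69, and the chaperone *Tapbp* of the peptide loading complex by 0.29.

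Some of the ABC genes that were higher are known from epithelium, and the epithelial markers were higher on the same array. All 15 epithelial markers were higher, with a median of 1.55, as were 8 of 8 markers of Paneth and goblet cells, with a median of 1.72. Under spike-in scaling these medians were 0.43 and 0.60, and 12 of the 15 epithelial markers were higher. Of 12 macrophage and dendritic cell markers, 10 had a difference and all of these were higher, with a median of 1.51 (1 was lower with quantile normalization and with normexp, and 4 of 11 under spike-in scaling), and of 8 B-cell and plasma cell markers 5 had one, with a median of 1.79 (1.03 with normexp and 0.67 under spike-in scaling), 4 of them higher and *Cd79b* lower at -0.26, while the other 3 were above background on neither array. The summed signals, in units of the 75th percentile of the array, were 141 and 468 for Paneth and goblet cells, 47.5 and 57.7 for macrophages and dendritic cells (mostly *Itgax*, whose scaled log2 signals were 5.52 and 5.73), and 26.01 and 58.2 for B cells and plasma cells, with the control array first. The median of the 10 T-cell markers was 0.32, but -0.81 under spike-in scaling, -0.23 with quantile normalization and -0.04 with cyclic loess. *Abcc3* (1.88), *Abcg5* (1.28), *Abcg8* (1.29), *Abcc2* (0.87) and *Cftr* (2.19) thus moved in the direction of the epithelial markers, and the part of epithelial RNA in these differences was not tested. The 7 nuclear receptors that were more than 2-fold higher, *Apoa1* and *Apoe* moved in that direction too, and for them it was likewise not tested. *Abcb1a*, *Abcb1b* and *Abcb4* were lower where all 15 epithelial markers were higher, and whether RNA of other cells bears on their differences was not tested. *Thy1*, which encodes the marker CD90, went from 3.09 on the control array to 6.89 on the other, a difference of 3.80, and whether the share of CD90+ cells bears on any ABC difference was not tested.

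**Figure D4:**
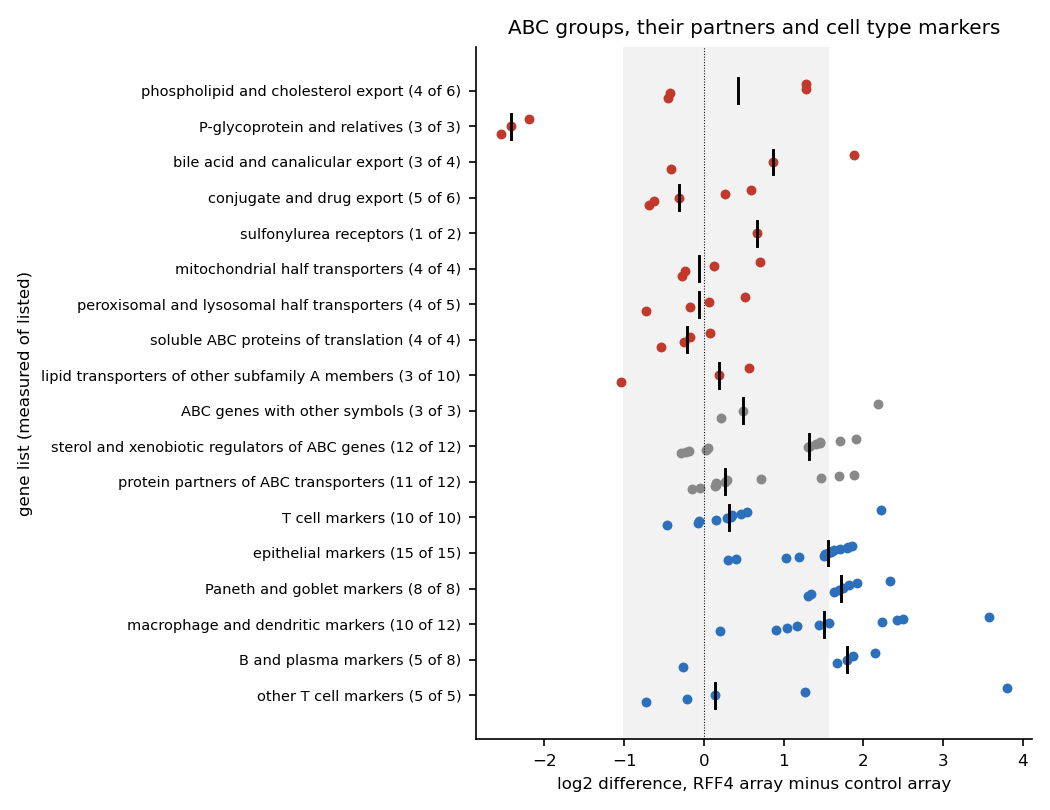
Log2 difference (horizontal axis, RFF4 array minus control array) of single genes in the lists of ABC genes by function (red), of related genes (gray) and of cell type markers (blue), where black bars are list medians, counts in parentheses give genes with a difference of those listed, and the gray band holds the 5th to the 95th percentile of all genes. The list of P-glycoprotein and its relatives lies at -2.54 to -2.19 and the epithelial markers at 0.31 to 1.86; under spike-in scaling all points lie lower by 1.12, apart from bounds, and the medians of 6 lists of ABC genes and partners, and of both T-cell lists, turn from above to below 0.

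Across other ways of processing, the values of *Abcb1a*, *Abcb1b* and *Abcb4* stayed at or below -2.54, -2.09 and -2.42, each more than 4-fold lower under all 11 alternatives that give a value per gene. Not all of these alternatives could alter the values. Each gene has 1 probe, above background on both arrays, so averaging over probes and other filters or bounds returned the same value by construction. *Abcc3* ranged from 1.64 to 2.002 without the spike-in alternative. Setting the 8 spike-in controls equal lowered every difference by 1.12, since these controls differed by only -0.05 between the arrays before scaling whereas the 75th percentile was 8.99 on the control array and 7.82 on the other. Under that setting 3 of the 33 ABC genes were higher on the RFF4 array (*Abcc3*, *Abcg5* and *Abcg8*), and the sign of 11 turned. The median of all genes was -1.10 there, and 90.02% of all genes were lower.

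**Figure D5:**
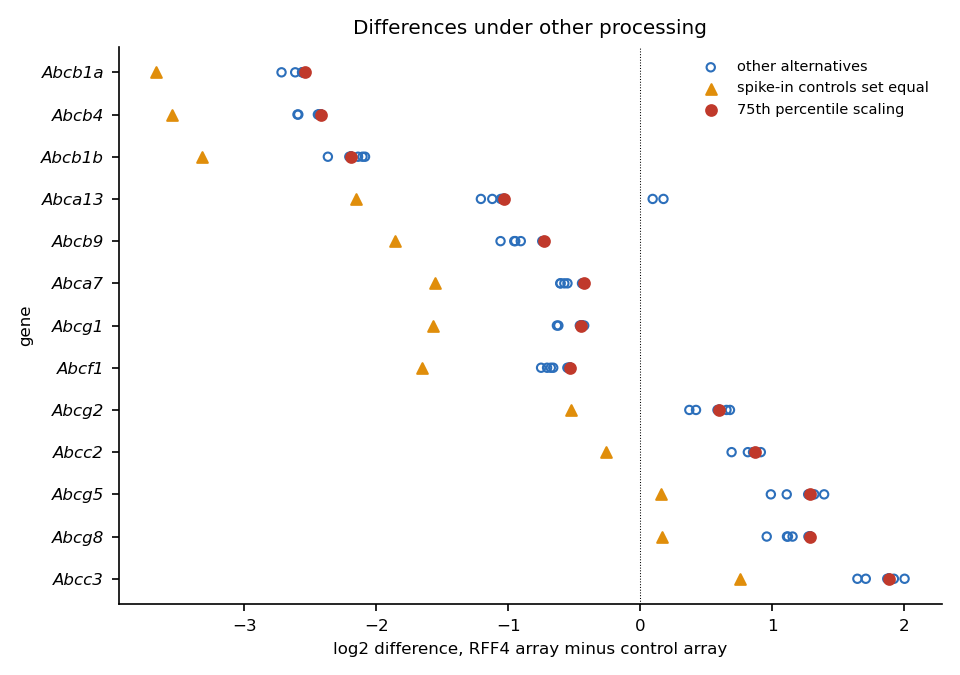
Log2 difference (horizontal axis, RFF4 array minus control array) of ABC genes with 75th percentile scaling (filled circles), with spike-in scaling (triangles) and under the other alternatives (open circles). *Abcb1a*, *Abcb1b* and *Abcb4* lie below -2 under every setting, *Abca13* crosses 0 under 2 alternatives, and *Abcg2* and *Abcc2* turn below 0 under spike-in scaling.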

How the data were processed

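RNA of sorted TCRαβ+CD8αα+ IELs was hybridized to Agilent mouse arrays of 1 color, 1 array for each genotype, so 2 arrays were compared. The deposited intensity values are, per the file headers, background-subtracted signals on a linear scale that Agilent Feature Extraction 10.7.1.1 wrote, which the submitters' processing notes also name, not normalized between arrays. The software also flags outliers, saturation (0 spots on each array) and signals well above background. The authors also deposited a normalized table with values centered per probe, whose software settings are not given in the sources used here. Of its 62976 lines 55840 were used, as an alternative only, since 6231 lines lack a value and 905 are repeats of a probe with a different scale.

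The log2 of each scanner signal was taken, less the 75th percentile of gene spots of its array (8.99 for Rbpj+/+ and 7.82 for the RFF4 array). Spots that are controls or outliers were dropped, and repeated spots averaged. A probe counted as well above background with 50% or more of its spots flagged so. RefSeq accessions were held by 29150 of 55679 probes, and 27509 matched a symbol of GRCm38.p6, giving 20887 genes, each represented by its brightest probe. The file headers name mm9, so no gene coordinates were taken from that table. Of 14224 genes above background on at least 1 array, 12955 were so on both. For the others, the dim array was set to the higher of its own signal and the lowest signal among its probes well above background, and 711 with a bound under 1-fold received no difference. The SD between spots of a probe, over 279 and 265 probes with 10 spots, was 0.12 and 0.11, or 0.16 for a difference, and covers technical error only.

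Members are the ABC genes by symbol, most of which are named, with both arrays' values for those past 2-fold and for examples of each list. The members and gene lists were chosen with earlier results of these data known. Medians and counts are descriptions without a test. Alternatives were median scaling, spike-in controls set equal, quantile normalization, cyclic loess, normexp on median signals with an offset of 50, the authors' table, the mean of all probes, other filters and bounds, outlier spots kept and each probe counted separately. Python 3.11.15 (numpy 2.4.6, pandas 2.3.3, scipy 1.17.1, matplotlib 3.10.9) and R 4.3.3 with limma 3.58.1 were used, and the steps were tested on simulated data. A few genes enter the counts and medians without values of their own here.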

Additional observations from a re-analysis of the deposited data

How the results depend on the processing

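No paired analysis was possible because each genotype has 1 array, and for the same reason no array could be left out. Over 12 alternatives, 97 counts and medians stayed within the technical SD (0.16) or within 1.5 times, and 35 moved. Under spike-in scaling the median over all genes shifted by -1.09, and there were 21 ABC genes more than 2-fold lower (56.9% of all genes) and 0 more than 2-fold higher (1.39%), with medians of -1.30 for the family of 34 genes (*Abca15* entered as a bound at -0.64) and of -1.08, -1.63, -1.15, -1.06, -1.38 and -0.53 for subfamilies A, B, C, D, F and G. Median scaling (shift -0.17) gave -0.35 for the family and -0.27, -0.68, -0.20, -0.11, -0.43 and 0.42 for the same subfamilies. Without filter or bound, which admits probes at background, the shift was 0.27, with 3 of 49 ABC genes more than 4-fold higher (3.34% of all genes), 16 more than 2-fold higher (30.03%), and medians of 0.13 for the family, 1.17 for A, -0.26 for B, 0.47 for C, 0.29 for D and 0.10 for G. Normexp left 1 gene more than 2-fold higher (9.22% of all genes) and gave 0.18 for A, -0.67 for B, 0.18 for C and 0.37 for G. The mean of all probes gave -0.011 for the family, 0.17 for A and 0.15 for C, plain ratios, with *Abca15* at -1.55, gave -0.26 for A, and counting each probe gave -0.26 for B. Cyclic loess put 1 gene more than 4-fold higher, *Abcc3* at 2.002 (1.77% of all genes). *Abca13* reversed to 0.18 with normexp and to 0.0935 with the mean of all probes. Beyond the construction of each setting, the cause was not tested. Over all genes, the count more than 4-fold lower was 79 and ranged from 34 with normexp to 948 under spike-in scaling, and the count more than 4-fold higher was 250 and ranged from 29 under spike-in scaling to 698 without filter or bound. Of 374 values of single genes, *Rbpj* included, 281 moved by less than 0.16, and 21 lay on the other side of 0, 2 of them for a gene past 2-fold (*Abca13*). Part of the 281 was fixed in advance and shows no stability. All genes followed were above background on both arrays, so other filters and bounds returned the same value. Averaging over probes likewise changed nothing for genes with a single probe. Taking gene names from the scanner files was not run, since these hold accessions only. Signals near background limit *Abca13* and *Abcg8*, whose unscaled signals were 18.3 and 18.7 on the RFF4 array. The same limit holds for *Rxra*, with a scaled log2 signal of -4.88 on the control array.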
